A study of Homo sapiens with 114 samples.

Results

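HK-2 cells exposed to CsA for 48 h were compared with vehicle-treated cultures of the same age. The comparison used 6 of the 114 arrays in the deposited table, 3 labelled CsA-t48h and 3 labelled CsA-t48h_ctrl, chosen by those labels and read as 3 pairs of cultures with the same replicate number. HK-2 is an immortalized line of human renal proximal tubular epithelial cells. All cultures grew in a defined medium with EGF, hydrocortisone, insulin, transferrin and selenite, were seeded the day before treatment and were treated when nearly confluent. Total RNA was hybridized to Affymetrix arrays, and each value is a GCRMA log2 intensity for 1 probe set on 1 array. The arrays used for comparison were groups of 3 cultures each: CsA for 12 h with its own controls, and Fk and Ra for 48 h, which shared 1 set of 3 controls. The labels give CsA, Fk and Ra as abbreviations and give no doses, and all 12 CsA arrays carry the label lab 3.

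CsA is the usual abbreviation of cyclosporin A, an immunosuppressant whose long-term use damages the kidney. The drug enters cells and binds cyclophilins, a family of enzymes that turn proline bonds in folding proteins, and the complex with cyclophilin A blocks the phosphatase calcineurin and so the transcription factors of the NFAT family. Proximal tubule cells take up most of what the kidney filters, and a large part of their protein output passes through the endoplasmic reticulum, where cyclophilin B works. When unfolded proteins build up there, the unfolded protein response raises chaperones, disulfide-forming enzymes, translocation and degradation machinery and transport coats.

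After 48 h, CsA cultures had lower RNA for DNA replication and mitosis and higher RNA for protein folding, translocation, glycosylation and vesicle transport in the secretory pathway. With the mean of the 3 paired differences tested by limma over 10806 genes, 2484 genes passed a Benjamini-Hochberg adjusted p under 0.05, which is 23% of those tested. Of these, 1069 rose (9.89%) and 1415 fell (13.1%), and 376 changed at least 2-fold (3.48%). Counts of list members that rose or fell are to be set against the shares of 9.89% and 13.1%. At an unadjusted p under 0.05 there were 4054 genes (37.5%). The median change over all genes tested was 0.00 log2 units. All 3 pairs had the same sign in each of the 2484 genes. The 3 CsA and 3 control arrays did not overlap in 961 of them, against 1567 of the 10806 genes tested.

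The count rests on the pairing. Deviations from the group mean correlated at 0.76, 0.534 and 0.808 between CsA and control cultures with the same replicate number, and the labels call these biological replicates without saying what a number marks. When the same 12 arrays were fitted without pairs, 1 gene passed limma, the antisense transcript EML2-AS1 with an adjusted p of 0.00193 (2.94, 2.88 and 2.88 in controls, below the filter of log2 4, and 4.28, 4.04 and 4.22 with CsA, just above it), and 1243 of the 2484 genes had an unadjusted p under 0.05. The 6 arrays of 48 h alone, with pairs, gave 457 genes, and a replicate number shared by both times gave 206. All arrays of the series fitted together, with CsA pairs, gave 844. Levels differed widely between control cultures: 18% of genes spanned more than 1 log2 unit over the 3 controls, and 10.2% did so over the 3 paired differences. CDH1, which encodes E-cadherin, read 8.81, 8.64 and 3.98 in the 3 controls, and LCN2, which encodes a secreted lipocalin used as a marker of kidney injury, read 4.0, 8.07 and 12.87. The third control culture was therefore low for the one gene and high for the other, and the cause was not tested. Upper quartiles of the 6 arrays lay between 8.48 and 8.62, and the ACTB 3′ minus 5′ control signal was 0.99, 1.05 and 0.75 with CsA against 1.19, 0.72 and 0.84 in the controls.

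The epithelial markers fixed for the check were present: EPCAM, CDH1, KRT8, KRT18 and KRT19 all had signal. Of the 10 proximal tubule markers in the table, PAX8 and CDH6 were well above the filter of log2 4. LRP2, CUBN, AQP1, GGT1, ANPEP, SLC34A1, SLC22A6 and SLC5A2 stayed under 4 on all 6 arrays, so these 8 markers were not detected. Other tubule genes had signal: SLC4A4 and PDZK1 averaged 11.42 and 9.76 in controls, and the peptidase ENPEP ran from 5.49 to 9.68. Markers of endothelium, leukocytes and distal tubule were all under 4. Of 6 fibroblast markers, DCN, LUM and COL1A1 passed the filter. Their mean differences were below 0 and none was called, and the summed log2 level of the 6 markers ran from 31.5 to 34.6 with CsA and from 35.4 to 37.6 in the controls. The part of these markers in the changes of matrix genes was not tested.

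DNA replication genes were lower as a group. Of 29 tested, 26 fell and 0 rose, 1 being higher both at an unadjusted p under 0.05 and with a trended prior, a limma variant in which the spread depends on the level, with a median of −1.25 log2 units (−0.85, −1.38 and −1.22 in pairs 1, 2 and 3). MCM10, which helps assemble the replication fork, read 6.47, 4.46 and 5.86 in the controls and 3.15, 2.74 and 3.97 with CsA. All 3 CsA values lay below the filter of log2 4, so the size of its fall is uncertain. The groups did not overlap and each CsA culture lay below its partner, a change of −2.31 ± 0.283 (SE; limma adjusted p = 0.00436). Other MCM10 probe sets gave −1.12, and −0.35 with 2 of 3 pairs of that sign. RRM2, the small subunit of ribonucleotide reductase that makes deoxynucleotides, read 13.20, 11.81 and 12.55 against 11.74, 9.14 and 10.91 with CsA (−1.93 ± 0.223, limma adjusted p = 0.00383), again without overlap. The replicative helicase subunit MCM4 fell from 9.92, 9.01 and 9.58 to 8.90, 7.20 and 7.17 (−1.75, limma adjusted p = 0.00493).

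The loading factor CDT1 fell by 1.70 and GINS2, part of the active helicase, fell by 1.67 (limma adjusted p = 0.00445 and 0.00435). GINS2 has probe sets that disagree: without probe sets that can hybridize to several transcripts its value was 0.03. The 3 members not called were GINS4 at −0.37, RFC5 at −0.20 and the loading factor CDC6 at 0.40, the one member above 0. Groups did not overlap in 22 of the 29 genes, against 1567 of the 10806 genes tested. Leaving out any 1 pair gave 24 or 25 genes called lower, and all arrays fitted together with the CsA pairs gave 25, while the shared replicate number gave 11 and the 6 arrays of 48 h alone 16.

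Promoters of replication genes often hold the sites TTTCCCGC, TTTGGCGC or TTTCGCGC, which E2F factors are known to bind. These letters were searched after the values were seen, on both strands of the 300 bases from 250 before to 50 after each RefSeq start. They occurred in 16 of 26 replication genes with a promoter sequence (61.5%), in 5.91% of the 8958 tested genes with one, in 9.63% of genes that fell and in 4.96% of genes that rose. The stretches below, from RefSeq on GRCh38.p14, are shown because they carry these letters in genes that fell; they lie upstream of the start and are read 5′ to 3′ on the strand of the gene, with the match in capitals. MCM6 (minus strand, chr2:135876482-135876569) encodes a helicase subunit, PCNA (minus strand, chr20:5126634-5126721) the sliding clamp and POLA1 (plus strand, chrX:24693741-24693828) the catalytic subunit of the priming polymerase.
MCM6: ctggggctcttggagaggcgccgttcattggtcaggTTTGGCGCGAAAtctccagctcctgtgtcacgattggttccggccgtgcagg
PCNA: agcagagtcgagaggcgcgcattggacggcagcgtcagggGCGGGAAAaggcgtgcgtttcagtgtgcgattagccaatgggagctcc
POLA1: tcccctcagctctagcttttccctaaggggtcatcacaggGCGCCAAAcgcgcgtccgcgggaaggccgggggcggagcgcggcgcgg
In MCM6 a match on each strand overlaps to form the longer capital run, and in PCNA and POLA1 the match is on the opposite strand.
These 3 genes were picked among those that carry the letters and fell, so their falls are given as values only. PCNA fell from 13.18, 12.42 and 12.70 to 12.25, 11.04 and 11.25 (−1.25), MCM6 by 1.49 and POLA1 by 1.18 (limma adjusted p = 0.00236, 0.00424 and 0.00168). CDC6 also carries the letters and was not called, at 0.40.

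**Figure D1:**
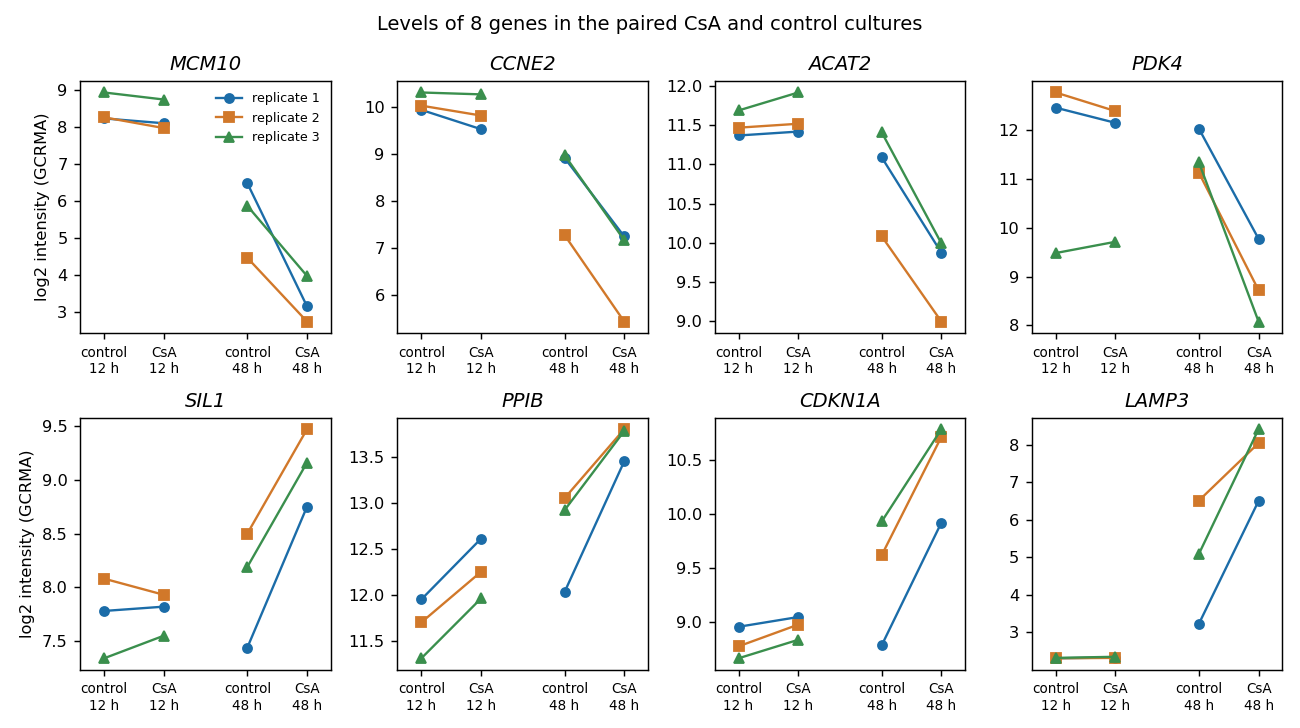
Each panel plots the log2 GCRMA intensity of 1 gene in the 12 CsA arrays, with a line joining the control and CsA cultures of 1 replicate number at 12 h and at 48 h; vertical scales differ between panels and do not start at 0. MCM10, CCNE2, ACAT2 and PDK4 drop in all 3 pairs at 48 h and SIL1, PPIB, CDKN1A and LAMP3 climb, while PPIB also climbs in all 3 pairs at 12 h.

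Mitotic genes were lower too, by a smaller amount. Of 28 tested, 22 fell and 0 rose (0 also without adjustment and with a trended prior), all 28 estimates were below 0, and the median was −0.85 (−0.68, −1.32 and −0.56 by pair). CENPE, a kinesin at the kinetochore, fell from 8.08, 7.18 and 8.47 to 6.75, 5.76 and 7.77 (−1.15, limma adjusted p = 0.00459). MKI67, which encodes the proliferation marker Ki-67, read 9.99, 9.47 and 10.56 in controls and 9.05, 7.67 and 9.91 with CsA (−1.13, limma adjusted p = 0.0108). In both genes the groups overlapped, although each culture with CsA was below its partner. The kinesin KIF20A fell by 1.11 and the spindle protein DLGAP5 by 1.07. KIF23 fell by 1.16, but gave 0.06 without probe sets that can hybridize to several transcripts. With only the 6 arrays of 48 h 5 mitotic genes were called, and with a shared replicate number 0.

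Of 16 genes that control entry into S phase, 14 had estimates below 0. CCNE2, a cyclin that activates CDK2 at the end of G1, read 8.92, 7.28 and 8.98 in controls and 7.25, 5.44 and 7.17 with CsA. No CsA array reached a control, and the change was −1.77 ± 0.0939 (SE; limma adjusted p = 0.00168), a 3.42-fold fall. Its relative CCNE1 fell by 1.35, CDK2 by 0.98, and E2F1, a transcription factor for S phase genes, by 0.98 (limma adjusted p = 0.00309, 0.00286 and 0.00627). CDKN1A, which encodes the CDK inhibitor p21, rose from 8.79, 9.62 and 9.93 to 9.92, 10.71 and 10.78 (1.02 ± 0.0858, limma adjusted p = 0.00194), in each pair although the groups overlapped. In all, 5 members fell and 1 rose, with a median of −0.22.

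CDKN1A is also a p53 target, yet that list did not move one way: 3 of 19 rose (15.8%) and 4 fell (21.1%), with a median of 0.28. Over all genes tested these shares were 9.89% and 13.1%. TIGAR, which lowers glycolytic flux, rose by 0.43. The death receptor FAS fell from 10.34, 10.10 and 10.06 to 9.73, 9.12 and 9.05 (−0.87, limma adjusted p = 0.00445), and TP53I3 and the DNA damage sensor DDB2 fell by 0.46 and 0.35.

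Genes of protein folding in the endoplasmic reticulum moved the other way. Of 23 chaperones and folding enzymes, 16 rose and 0 fell (0 also without adjustment and with a trended prior), all 23 estimates were above 0, and the median was 0.69. The increase differed between pairs, with medians of 1.11, 0.48 and 0.52 in pairs 1, 2 and 3. SIL1, the nucleotide exchange factor of the chaperone BiP, read 7.44, 8.5 and 8.19 in controls and 8.75, 9.47 and 9.16 with CsA (1.08 ± 0.107, limma adjusted p = 0.00286). Every CsA array of SIL1 was above every control. ERO1B, an oxidase that drives disulfide formation, went from 7.41, 9.09 and 9.30 to 9.35, 9.95 and 9.91 (1.14 ± 0.235, limma adjusted p = 0.0168). FKBP14, a prolyl isomerase of another family than the cyclophilins, rose by 0.94, and HYOU1, a large chaperone of the same compartment, by 0.95 (limma adjusted p = 0.00864 and 0.032).

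HSPA5, which encodes BiP itself, read 14.85, 15.42 and 15.62 in controls and 15.40, 15.60 and 15.68 with CsA. Its values were high in every culture and overlapped, and the difference of 0.27 ± 0.111 was not called (limma adjusted p = 0.129). The probe set used averaged 15.3 in controls, near the top of the scale, and a dimmer one, at 10.33, gave 0.77 with all 3 pairs above 0. DDIT3, which encodes the stress factor CHOP, was at 0.29 and TRIB3, its target, at 0.08 (limma adjusted p = 0.174 and 0.654). XBP1, the transcription factor whose splicing drives much of this response, was at 0.11 (limma adjusted p = 0.422); probe sets of this kind do not report splicing.

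The promoter element known for this response joins CCAAT and CCACG across 9 bases of any kind. It was found in 7 of 21 folding genes with a promoter sequence (33.3%), namely HSPA5, HSP90B1, CALR, CANX, PDIA6, ERO1B and CRELD2, in 0.167% of the tested genes, in 9 of 907 genes that rose (0.992%) and in 0 of 1174 that fell. The stretches below come from RefSeq on GRCh38.p14, upstream of the start on the strand of each gene, with the element in capitals. They are shown because HSP90B1 (plus strand, chr12:103930281-103930379) and CANX (plus strand, chr5:179698738-179698836), both chaperones, and ERO1B (minus strand, chr1:236282143-236282208) rose, while HSPA5 (minus strand, chr9:125241351-125241449) holds the same element and was not called.
HSP90B1: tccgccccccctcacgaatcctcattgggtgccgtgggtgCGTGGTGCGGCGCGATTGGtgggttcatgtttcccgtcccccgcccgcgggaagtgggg
CANX: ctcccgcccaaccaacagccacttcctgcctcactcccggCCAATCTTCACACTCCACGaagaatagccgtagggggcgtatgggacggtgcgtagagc
ERO1B: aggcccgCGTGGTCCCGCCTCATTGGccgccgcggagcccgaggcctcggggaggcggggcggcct
HSPA5: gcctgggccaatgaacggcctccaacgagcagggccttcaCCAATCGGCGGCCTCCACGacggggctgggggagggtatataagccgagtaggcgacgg
HSP90B1 and ERO1B carry the element on the opposite strand.
HSP90B1 and CANX, picked because they carry the element and rose, were at 0.66 and 0.59 (limma adjusted p = 0.0257 and 0.0095). Of the 7 folding genes with the element, 4 were called: HSP90B1, CANX, PDIA6 and ERO1B. CALR and CRELD2, at 0.55 and 0.86, were not called, like HSPA5.

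The steps that follow folding were higher as well. Of 22 genes of translocation, degradation and sensing, 16 rose and 0 fell (0 also without adjustment and with a trended prior), with a median of 0.61. SELENOS, a membrane protein of the degradation complex, rose from 9.91, 10.67 and 10.80 to 10.98, 11.55 and 11.68 (0.95 ± 0.0775, limma adjusted p = 0.00177). SEC61A1, the pore through which new proteins enter, went from 10.93, 12.41 and 12.16 to 12.49, 12.94 and 12.93 (0.96, limma adjusted p = 0.0149). For both genes the lowest CsA array was above the highest control. EDEM2, which marks misfolded glycoproteins, rose by 1.10, and the membrane protein WFS1 by 1.08. HERPUD1 and the sensor ERN1 stood at 0.25 and 0.19 and were not called.

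In the list of glycosylation and vesicle transport 23 of 26 rose and 0 fell (0 also without adjustment and with a trended prior), with all 26 estimates above 0 and a median of 0.54 (0.76, 0.49 and 0.40 by pair). COPG1, a subunit of the COPI coat, rose from 8.15, 8.20 and 8.89 to 9.35, 9.51 and 9.79 (1.14 ± 0.107, limma adjusted p = 0.00266). STT3A, a catalytic subunit of the oligosaccharyltransferase, rose by 0.89, the cargo receptor LMAN1 by 0.78, the transport protein TMED9 by 0.73 and the oligosaccharyltransferase subunit DAD1 by 0.72. Among several sequences searched was TGACGTG, which 7 of 23 promoters (30.4%) held on either strand. It occurred in 3.37% of the tested genes, 6.17% of genes that rose and 2.39% of genes that fell. SEC24A and COPB1, among the 7, were not called, and a role of the sequence was not tested. The lists of this compartment had few calls with a shared replicate number: 1 folding gene, 3 of translocation and degradation and 2 of transport. The 6 arrays of 48 h alone gave 3, 3 and 6.

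**Figure D2:**
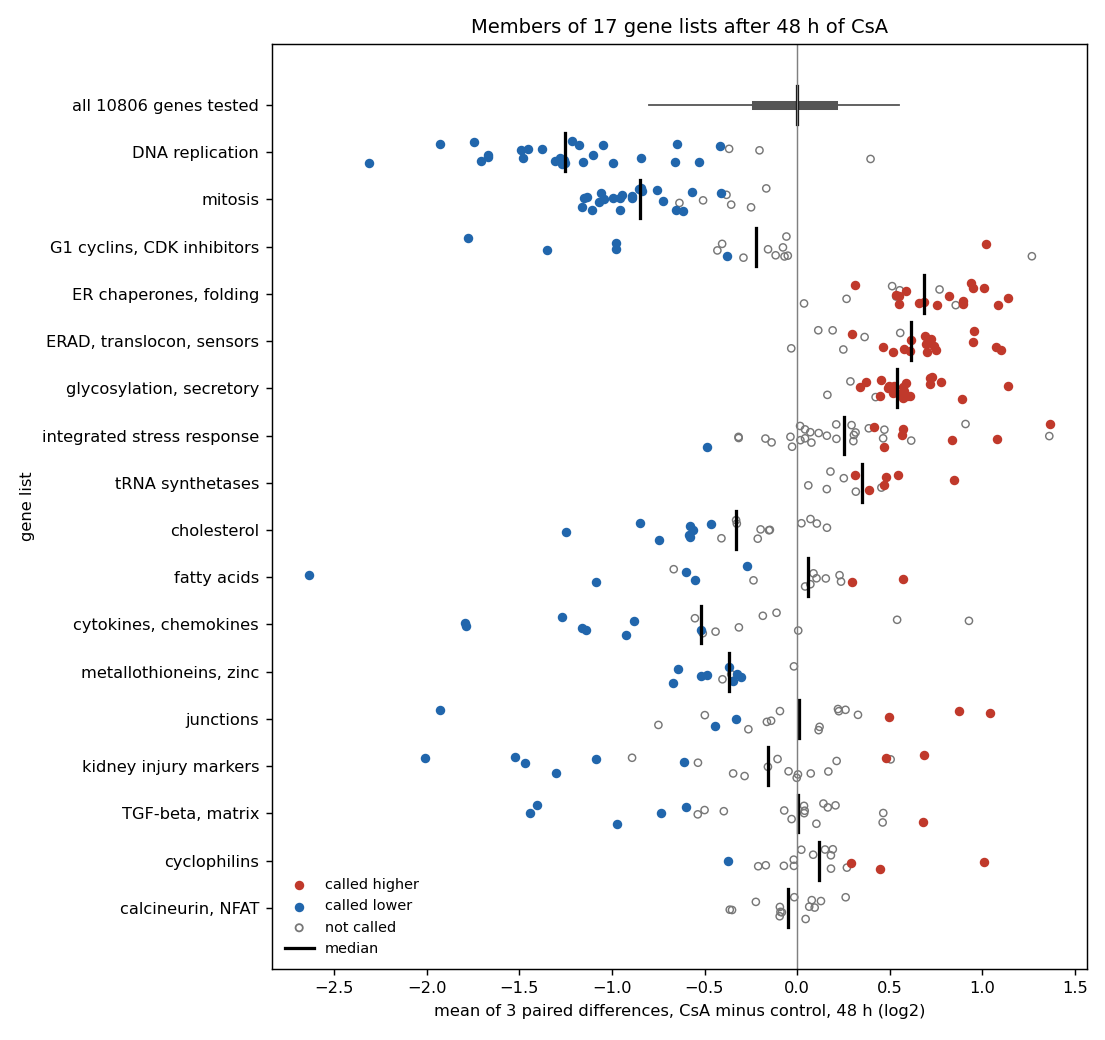
Each point is 1 tested gene, placed by its mean paired difference at 48 h in log2 units, in 17 gene lists; filled points passed a limma adjusted p under 0.05, black bars are list medians, and the top row gives the median, quartiles (thick, −0.22 to 0.19) and 5th to 95th percentiles (thin, −0.80 to 0.55) of all 10806 genes. Points of DNA replication and mitosis lie mostly left of the thin line's end and those of the endoplasmic reticulum (ER) lists mostly right of 0, with medians of −1.25, −0.85, 0.69, 0.61 and 0.54.

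The integrated stress response, a parallel arm started by kinases such as PERK, which senses unfolded proteins, or GCN2, which senses uncharged tRNA, and acting through ATF4, moved less. Of 34 targets, 7 rose and 1 fell, with a median of 0.25. ALDH1L2, a mitochondrial folate enzyme, read 7.5, 8.42 and 8.09 in controls and 9.36, 9.73 and 9.01 with CsA (1.36 ± 0.331, limma adjusted p = 0.0285). SLC3A2, the heavy chain of amino acid exchangers, rose by 1.08, ATF3 by 0.84, CEBPG by 0.57 and the phosphatase subunit PPP1R15A by 0.57. ATF4 itself was at 0.31 and not called (limma adjusted p = 0.0932). Among 12 aminoacyl tRNA synthetases, which charge tRNA with amino acids, 6 rose and 0 fell (0 also without adjustment and with a trended prior), with a median of 0.35; WARS1 rose by 0.85 and SARS1 by 0.54.

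The binding partners of the drug gave a mixed result. PPIB, the cyclophilin of the endoplasmic reticulum, read 12.03, 13.05 and 12.92 in controls and 13.45, 13.80 and 13.78 with CsA. Groups did not overlap, and the rise of 1.01 ± 0.133 (SE; limma adjusted p = 0.00497) was 2.01-fold. PPIC, a relative in the same compartment, rose by 0.45 and the cytosolic PPID by 0.29. A further PPID probe set with signal gave 0.2, with all 3 pairs above 0, although the mean of all PPID probe sets, dim ones included, gave −0.07. PPIL1, a cyclophilin of the spliceosome, fell by 0.38. PPIA, the abundant cytosolic cyclophilin A, read 14.89, 14.94 and 14.9 in controls and 14.76, 14.63 and 14.84 with CsA; the groups did not overlap but the difference of −0.17 was not called (limma adjusted p = 0.177). PPIF, the mitochondrial form, was at −0.21 (limma adjusted p = 0.122). Of 16 cyclophilins tested, 3 rose (18.8%) and 1 fell (6.25%), against 9.89% and 13.1% of all genes tested, with a median of 0.12.

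None of 14 genes of calcineurin, NFAT and their regulators passed the limma test; 2 were lower at an unadjusted p under 0.05, and 1 was called with a trended prior. The nearest was NFATC3 at −0.36 (limma adjusted p = 0.0729). RCAN1, a known NFAT target that in turn binds calcineurin, read 8.41, 8.44 and 8.32 in controls and 8.30, 8.72 and 8.35 with CsA, a difference of 0.07. The calcineurin subunits PPP3CA and PPP3R1 stood at 0.09 and 0.26. RCAN1, PPP3CA, PPP3R1 and NFATC3 each had a further probe set with the opposite sign.

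Lipid and fuel genes were mostly lower where they were called. Of 19 genes of cholesterol synthesis and uptake, 8 fell and 0 rose (0 also without adjustment and with a trended prior), with a median of −0.33. ACAT2, which makes acetoacetyl-CoA, fell from 11.09, 10.08 and 11.41 to 9.87, 8.99 and 9.99, without overlap (−1.25 ± 0.0923, limma adjusted p = 0.00168). HMGCS1, which makes the next intermediate, fell by 0.85 and SQLE, which makes squalene epoxide, by 0.75. IDI1 fell by 0.58. It gave 0.29 without probe sets that can hybridize to several transcripts, from a dim probe set that averaged 4.14 in controls. SREBF1, a regulator of lipid synthesis, rose by 0.57 (limma adjusted p = 0.00717), while ACLY, which supplies cytosolic acetyl-CoA, fell by 0.60.

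PDK4 had the largest fall of all genes called. This kinase inactivates pyruvate dehydrogenase, and its levels were 12.02, 11.12 and 11.33 in controls against 9.77, 8.72 and 8.08 with CsA. The groups were far apart, a change of −2.64 ± 0.208 (SE; limma adjusted p = 0.00173) or 6.22-fold. PPARGC1A, a coactivator of mitochondrial biogenesis and oxidation, fell from 8.43, 7.38 and 6.79 to 7.44, 6.50 and 5.40 (−1.09, limma adjusted p = 0.00288), and CPT1A, which brings fatty acids to mitochondria, by 0.55. In the fatty acid list 5 of 16 fell and 2 rose, with a median of 0.06. Respiratory chain subunits moved little: 2 of 22 fell (9.09%, against 13.1% of all genes tested), ATP5MC1 by 0.56 and SDHA by 0.28. In that list 0 rose (0 also without adjustment and with a trended prior). In the glycolysis and hypoxia list 5 of 27 fell (18.5%), among them the glycolytic regulator PFKFB3 by 1.23. In the same list 2 rose (7.41%), the peptide hormone ADM by 0.97 and NDRG1 by 0.73. Over all genes tested 13.1% fell and 9.89% rose.

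Markers of kidney injury did not rise as a group. Of 21 tested, 6 fell (28.6%) and 2 rose (9.52%), against 13.1% and 9.89% of all genes tested, with a median of −0.16. HAVCR1, the injury marker KIM-1, fell from 10.86, 10.20 and 10.34 to 10.48, 9.31 and 9.77 (−0.61, limma adjusted p = 0.0114), and the adhesion molecule VCAM1 from 8.26, 8.95 and 8.34 to 7.53, 7.22 and 6.23 (−1.52, limma adjusted p = 0.0089). CCN2, a matrix-associated growth factor, had uneven pairs: 9.41, 9.01 and 7.00 in controls and 8.87, 7.46 and 3.06 with CsA (−2.01 ± 0.551, limma adjusted p = 0.0409). KRT20 fell by 1.3, PROM1 by 1.47 and CD24 by 1.09. KRT18 rose by 0.48, and LCN2, at 0.50, was not called. Of the 7 tested genes of proximal tubule identity and transport 3 fell, the cadherin CDH6 by 1.26, the scaffold PDZK1 by 1.20 and the bicarbonate transporter SLC4A4 by 1.06.

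Of 18 junction genes 3 rose and 3 fell (16.7% each), near the 9.89% and 13.1% of all genes tested, with a median of 0.01. CDH1 rose in each pair, from 8.81, 8.64 and 3.98 to 9.46, 9.51 and 5.57, a change of 1.04 ± 0.172 (SE; limma adjusted p = 0.00882) that is smaller than the spread between cultures. ESRP1, an epithelial splicing factor, rose by 0.87 and CLDN4, a sealing claudin, by 0.49. CLDN2, the pore-forming claudin of the proximal tubule, read 8.93, 9.09 and 6.25 in controls and 8.55, 6.57 and 3.36 with CsA. It fell by 1.93 ± 0.428 (limma adjusted p = 0.0215), and its pairs differed from −0.39 to −2.89. N-cadherin (CDH2) fell by 0.44, with −0.01 for a dimmer probe set that averaged 7.76 in controls.

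Regulators and markers of the mesenchymal state were lower: S100A4 fell by 1.18, TCF4 by 0.91 and TWIST1 by 0.54, so that 3 of 5 tested fell and 0 rose (0 also without adjustment and with a trended prior). TCF4 was dim, with a mean of 4.81 in controls and under log2 4 with CsA. VIM, the mesenchymal intermediate filament, was at 0.07 and not called. Among 20 TGF-beta targets and matrix genes 5 fell and 1 rose. THBS1, which activates latent TGF-beta, fell by 1.44 (0.25 for its other probe set), the basement membrane collagen COL4A1 by 1.4 and the BMP target ID1 by 0.97, while LOX, which cross-links collagen, rose by 0.68. TGFB1 went from 8.38, 9.12 and 9.10 to 9.31, 9.29 and 9.39, groups that did not overlap, but the difference of 0.46 was not called (limma adjusted p = 0.0617). Of 15 actin and SRF genes 2 fell (13.3%), near the 13.1% of all genes tested. They were CCN2 and VCL, which encodes vinculin, the latter by 0.57. Of 14 keratins and desmosome genes 3 rose, SCEL by 1.4, KRT8 by 0.59 and KRT18.

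Cytokines and chemokines were lower in 8 of 17 genes and higher in 0 (1 higher without adjustment and 1 with a trended prior), with a median of −0.52. IL6 read 4.32, 6.21 and 9.59 in controls and 4.0, 4.28 and 6.47 with CsA. Each CsA culture was below its partner, though the 3 cultures began far apart, and the change was −1.79 ± 0.462 (SE; limma adjusted p = 0.0343). The monocyte chemokine CCL2 fell from 6.60, 6.27 and 3.60 to 4.25, 4.24 and 2.61 (−1.8, limma adjusted p = 0.0088). The neutrophil chemokines CXCL3 and CXCL5 fell by 1.27 and 1.16, and TNFAIP3, an inhibitor of NF-kappaB, by 1.14. Medians by pair were −0.15, −1.04 and −0.78. Of 18 interferon-induced genes 2 rose (11.1%) and 3 fell (16.7%), near the 9.89% and 13.1% of all genes tested, with the exonuclease ISG20 rising by 1.55 and IFIT3 by 0.37, and USP18, OAS3 and IFITM1 falling by 0.97, 0.91 and 0.74.

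In the list of early response and ERK feedback genes 6 of 21 fell (28.6%) and 3 rose (14.3%). Over all genes tested these shares were 13.1% and 9.89%, and the list median was −0.16. DUSP6, a phosphatase that ERK induces against itself, fell from 13.05, 12.34 and 12.63 to 12.16, 10.87 and 11.27, without overlap (−1.24 ± 0.12, limma adjusted p = 0.00274). EGR1 and FOSL2, both transcription factors of the early response, fell by 1.18 and 1.12, though another FOSL2 probe set gave 0.05. In a separate list of EGF family ligands and receptors 2 of 11 rose (18.2%) and 3 fell (27.3%), with a median of −0.31. There the ligand BTC rose by 1.10 and the feedback inhibitor ERRFI1 by 0.46. LRIG1 fell by 0.51, the ligand TGFA by 0.35 and the receptor ERBB2 by 0.42, with 0.07 for a dimmer ERBB2 probe set.

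Metal and stress genes completed the lists. Of 11 metallothionein and zinc genes 8 fell and 0 rose (0 also without adjustment and with a trended prior), with a median of −0.37; MT1M fell by 0.67 and the zinc transporter SLC30A2 by 0.64, and metallothionein probe sets can share signal between near-identical copies. Of 20 NRF2 targets 6 rose and 2 fell: HMOX1, which breaks down heme, rose from 7.56, 8.42 and 9.05 to 8.27, 8.91 and 9.67 (0.61, limma adjusted p = 0.00872), and AKR1C1 fell by 1.51. Another AKR1C1 probe set, of similar level in controls (6.33 against 6.55), gave −0.25. Lysosome and autophagy genes rose in 7 of 24 and fell in 2, with WIPI1, an early autophagy protein, up by 1.05 and the lysosomal enzyme GLA down by 0.82. Of 14 cytosolic heat shock genes 1 fell (7.14%, against 13.1% of all genes tested), CRYAB by 0.41. Of 22 proteasome genes 1 rose (4.55%, against 9.89%), PSMA4 by 0.32. Among 6 drug and lipid transporters ABCB1, the efflux pump P-glycoprotein, fell by 0.84 and ABCA1, a cholesterol exporter, rose by 0.56.

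Among the 15 largest single rises was ISG20, named above. LAMP3, a lysosome-associated membrane protein, read 3.23, 6.51 and 5.09 in controls and 6.50, 8.04 and 8.41 with CsA, a rise of 2.71 ± 0.326 (SE; limma adjusted p = 0.00422). CLIP4, which has domains that bind microtubules, rose from 3.26, 5.80 and 4.56 to 5.67, 7.63 and 6.62 (2.11 ± 0.115, limma adjusted p = 0.00168). In both genes the controls spread over more than the change, so the arrays overlapped while the pairs did not differ in sign. IL20RB, a cytokine receptor subunit, rose from 4.80, 5.66 and 5.41 to 6.75, 7.43 and 7.41 without overlap (1.91, limma adjusted p = 0.00405). SEC11C, a subunit of signal peptidase, rose by 1.5 and CADPS2, a factor for dense core vesicle release, by 1.63. The other rises among the first 15 were CIMAP1B (2.47), LINGO2 (1.92), the long noncoding RNA CARINH (1.89), TMEM140 (1.84), SYTL1, which binds RAB27 on secretory vesicles (1.81), BEX5 (1.8), PRSS16 (1.78), FBXO16 (1.74), ISG20 (1.55) and SPATA17 (1.47). LAMP3, CLIP4, CIMAP1B, LINGO2, CARINH, TMEM140 and PRSS16 read below the filter of log2 4 in at least 1 control.

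Among the 15 largest falls, BRIP1, a helicase that works with BRCA1, read 7.89, 5.95 and 7.66 in controls and 5.87, 2.67 and 5.18 with CsA (−2.59 ± 0.214, limma adjusted p = 0.0018). ASF1B, a histone chaperone of replicating cells, fell from 8.60, 7.72 and 8.28 to 6.83, 4.43 and 5.71 (−2.55, limma adjusted p = 0.00286), and HELLS, a chromatin remodeller, by 2.11. All 3 genes separated the groups completely. SLC6A13, a transporter of GABA and taurine, fell from 11.40, 10.05 and 6.43 to 9.67, 7.78 and 3.87, from very unlike control levels (−2.19 ± 0.165, limma adjusted p = 0.00168), while a dimmer probe set gave −0.26. DEFB1, an antimicrobial peptide of epithelia, fell by 2.55, the receptor kinase EPHA4 by 2.47 and the focal adhesion scaffold NEDD9 by 2.07. The list of 15 was completed by PDK4, MCM10, CCM2L (−2.62), BRI3BP (−2.53), BCO2 (−2.39), RIBC2 (−2.14), LRRN4 (−2.11) and NAPEPLD (−2.04, with 0.1 for its dimmest probe set). EPHA4, LRRN4, NEDD9 and BCO2 fell most in pair 3 and least in pair 1. Among the falls whose levels are printed, MCM10, BRIP1, SLC6A13, CLDN2, CCN2 and CCL2 read below the filter of log2 4 in at least 1 CsA culture. Among falls given without levels, CCM2L, PROM1, TCF4 and USP18 averaged under log2 4 with CsA, so the size of these falls is uncertain.

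**Figure D3:**
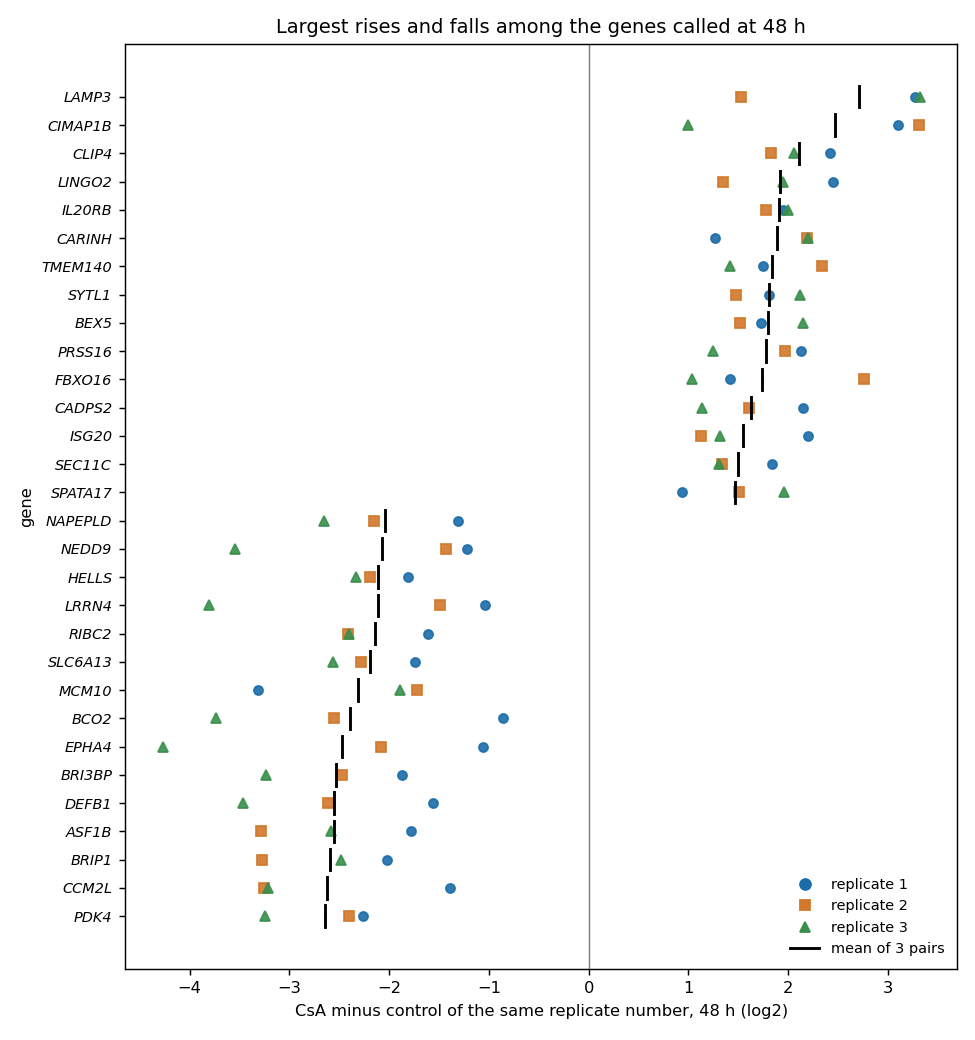
The 15 largest rises and 15 largest falls at 48 h are ordered by mean change; symbols give each pair's CsA minus control difference in log2 units and black bars the mean of 3 pairs. All differences lie on the side of their mean, and pair 3 gives the largest drop for EPHA4, LRRN4, NEDD9 and BCO2.

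At 12 h no gene passed the limma test in the same model, and 749 had an unadjusted p under 0.05 (6.93%); with a trended prior 1 passed, HSPA5, whose adjusted p was 0.0242 there. HSPA5 read 13.12, 13.12 and 12.80 in the 12 h controls and 14.24, 14.10 and 13.68 with CsA, so that every treated array exceeded every control (0.99, limma adjusted p = 0.278 in the main model). The 48 h and 12 h differences of HSPA5, 0.27 and 0.99, were not called different (limma adjusted p = 0.0666). Folding genes had a median of 0.42 at 12 h with 22 of 23 above 0, and 18 were higher at an unadjusted p under 0.05. PPIB was at 0.62 and ERO1B at 1.02 at the earlier time.

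Tested directly, the CsA response differed between 48 h and 12 h in 209 genes (1.93% of those tested), 54 higher (0.5%) and 155 lower at 48 h. Of these lower genes, 8 belong to DNA replication (1.43% of all genes tested were lower), and the list's median moved from −0.05 at 12 h to −1.25. MCM10 was at −0.20 at 12 h, RRM2 at −0.20 and CCNE2 at −0.22, of which CCNE2 passed the test of the difference (limma adjusted p = 0.0236) and MCM10 missed it (0.052). In the cholesterol list 17 of 19 estimates were above 0 at 12 h (median 0.14) and 15 were below 0 at 48 h, and 6 passed the test of the difference, ACAT2 with an adjusted p of 0.0236. LAMP3 was under 2.4 on all 6 arrays of 12 h, where it was not detected, so its rise was seen at 48 h in cultures whose controls had also gained signal. SIL1 (0.03 at 12 h) and PDK4 (−0.15) also passed (limma adjusted p = 0.0328 and 0.0236), whereas ALDH1L2, at 1.41 and 1.36, did not (0.965). Leaving out pair 1, 2 or 3 of the 48 h arrays gave 324, 85 and 129 genes. Without replicate numbers as pairs 0 genes passed this limma test, with 382 at an unadjusted p under 0.05.

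Control cultures themselves differed between the times, in the direction of the CsA effect for the main lists. From 12 h to 48 h the control means fell by a median of 1.01 over the DNA replication list and 1.20 over the mitosis list, and rose by 1.26 over the folding list and 0.80 over translocation and degradation, against −0.01 over all genes tested. MCM10, for example, read 8.22, 8.25 and 8.92 in the 12 h controls. The age and density of the cultures cannot be told apart from time in these values.

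**Figure D4:**
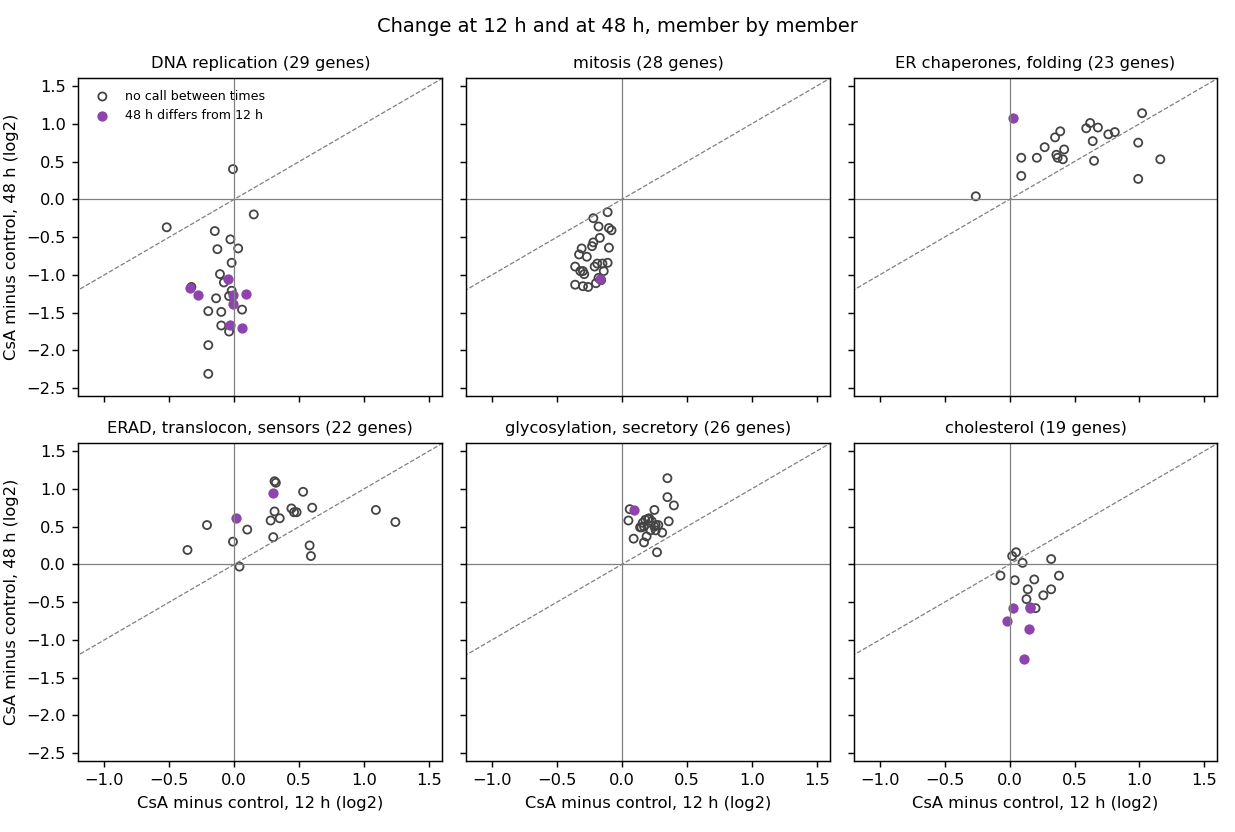
Each point is 1 gene, with its change at 12 h on the horizontal axis and at 48 h on the vertical axis, both as CsA minus control in log2 units; the dashed line marks equal change and filled points passed the limma test of the difference between times. DNA replication genes lie near 0 at 12 h and mostly below −0.5 at 48 h, 22 of 23 folding genes lie above 0 at 12 h and all 23 at 48 h, and cholesterol genes move from slightly above 0 to mostly below 0.

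Fk and Ra at 48 h offered a comparison with other treatments of the same line, at doses that cannot be matched. In the fit that held them, replicate numbers were pairs for the CsA arrays only, so Fk and Ra were tested without pairs. Cultures labelled Fk had 0 genes called in limma and 294 (2.7%) at an unadjusted p under 0.05. Counts with Fk or Ra are therefore not like the paired CsA count of 2484, which was 1 without pairs. The CsA and Fk responses differed in 0 genes by limma, also with a trended prior, and in 482 (4.42%) at an unadjusted p under 0.05. One array of the same fit, Ra replicate 2, lay far below the rest; without it the unadjusted counts were 701 for Fk and 1004 for the difference, and again 0 genes passed limma. For MCM10 the responses were −2.31 with CsA and −0.50 with Fk, and their difference of −1.81 had an SE of 0.983. List medians with Fk were −0.23 for DNA replication, −0.01 for mitosis and 0.04 for folding, against −1.25, −0.85 and 0.69 with CsA. Cholesterol genes had medians of −0.46 with Fk and −0.33 with CsA, and 18 of 19 estimates were below 0 with Fk. A difference this test missed may still exist, since the SE was wide.

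List medians with Ra had the opposite sign to those with CsA for replication, mitosis and the endoplasmic reticulum. Few members of these lists passed limma with Ra alone: 0 in replication, mitosis and folding, or 2 replication genes higher without replicate 2. That array had an upper quartile of 7.80 against 8.55 or more on the other Ra, Fk and shared control arrays, and results on Ra are given with and without it. The CsA and Ra responses differed in 143 genes (1.31%), 56 higher with CsA (0.514%) and 87 lower (0.798%), or in 812 without that array. Over all genes the median response to Ra was −0.20, or 0.00 without the array, so Ra values are to be read against that shift. Leaving out any 1 of the 3 CsA pairs left 0 genes called by limma, as did a fit without pairs, which had 2483 at an unadjusted p under 0.05. Median changes with Ra were 0.85 for DNA replication and −1.05 for folding, or 1.00 and −0.72 without the array. CCNE2 was at 1.90 with Ra, and its difference from CsA was −3.68 ± 0.511 (SE; limma adjusted p = 0.027), or −3.80 (0.0161) without the array. Among replication genes 8 of 29 had a lower response to CsA than to Ra, or 19 without the array. Among the 34 stress response targets 5 had a higher response to CsA than to Ra, or 9 without the array. With Ra alone 17 of these 34 targets were called lower and 0 higher, or 8 and 0 without the array. Their median was −1.86 with Ra, or −1.53 without the array, against 0.25 with CsA. Most of the difference in this list therefore lay in lower values with Ra. DDIT3 was at −3.65 with Ra and 0.29 with CsA (difference 3.95, limma adjusted p = 0.0702), or −3.41 and 3.71 (0.0767) without the array. No folding gene passed in this comparison either way, at medians of 1.86 and 1.62 for CsA minus Ra.

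**Figure D5:**
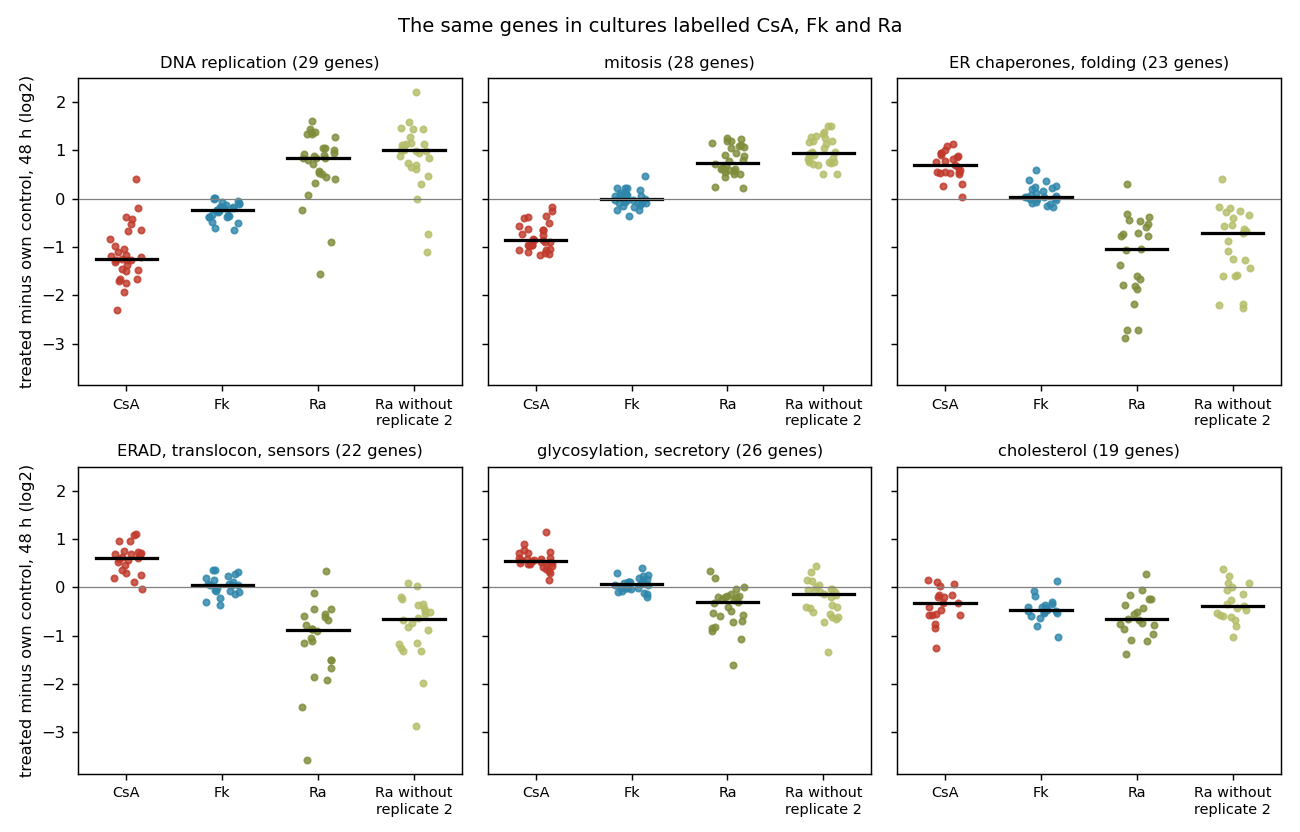
Points are the tested genes of 6 lists and black bars their medians, as treated minus own control in log2 units at 48 h, for CsA, Fk, Ra and Ra without its replicate 2; Fk and Ra share controls. Replication medians are −1.25 with CsA, −0.23 with Fk and 0.85 with Ra, and folding medians 0.69, 0.04 and −1.05.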

How the data were processed

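Per the labels' protocols, total RNA was labelled and hybridized to Affymetrix arrays. The deposited table holds log2 intensities made by the authors with GCRMA, per the submitters' processing notes; no version is given in the sources used here, and these steps were not repeated. The log2 scale is relative, so a change in total RNA per cell is not seen, and low values carry little information.

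Of 54675 probe sets, 41091 name 1 gene symbol. The probe set with the highest mean stood for each of 19775 genes, and 10806 genes above log2 4 on at least 3 of the 12 CsA arrays were tested. Means of the paired differences were tested with limma 3.58.1 in R 4.3.3 on 12 CsA arrays (48 h and 12 h share the spread; 4 residual degrees of freedom), each pair a block, with Benjamini-Hochberg adjustment at 0.05. Fk and Ra entered a second fit of 15 arrays with 10898 genes, in which only the CsA arrays had pairs as blocks. Tables used Python 3.11.15, pandas 2.3.3 and numpy 2.4.6.

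Same-numbered cultures deviated together (r = 0.76, 0.534 and 0.808 at 48 h), against −0.68 to 0.147 for unlike numbers. At 12 h they did so at 0.791, 0.829 and 0.931, but unlike numbers 1 and 2 also correlated at 0.71 and 0.682. Every same-number correlation was above 0.1, so numbers were read as pairs. Where cultures came from is not stated. In the main fit p-values measure the spread of the paired differences of these samples, at 48 h and 12 h together, and not the spread between cultures. The members and the gene lists were chosen with earlier results of these data known. Named were the 15 largest rises and falls among called genes with 3 pairs of 1 sign, up to 5 called members of each list (or up to 2 nearest where none was called), a fixed set always given and the 5 largest differences between responses each way; others were chosen for their sequence or marker role after values were seen. Alternatives changed the pairing, filter, probe set choice, normalization, moderation and arrays in the fit. The fit was tested on simulated data.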

Additional observations from a re-analysis of the deposited data

Results flagged for a closer look

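The genes below were singled out because the CsA response at 48 h differed, by a test of the difference itself, from the response at 12 h or from the response to Ra. Between 48 h and 12 h 209 genes differed. Among the largest differences, the 48 h response was higher for LAMP3 (2.69 log2 units), LINGO2 (2.18), CLIP4 (2.06), TMEM140 (1.92) and ISG20 (1.72). It was lower for the antimicrobial peptide DEFB1 (−2.54), PDK4 (−2.48), BRI3BP (−2.43), BRIP1 (−2.43) and the histone chaperone ASF1B (−2.22).

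Between CsA and Ra 143 genes differed, with Ra replicate 2 included. The CsA response was higher for CLIP4 (5.16), ALDH1L2 (5.14), the inositol kinase ITPKA (4.83), CAMTA2 (4.47) and ANK2, which encodes an ankyrin (4.45). It was lower for ASF1B (−4.55), PDK4 (−4.47), BRI3BP (−4.07), the DNA helicase BLM (−3.94) and CCNE2 (−3.68). ANK2 and CAMTA2 were not called with CsA alone (0.47 and 1.3, limma adjusted p = 0.221 and 0.0752). Without Ra replicate 2 these differences were 5.16, 4.93, 4.06, 4.0 and 3.72 for the higher responses and −4.76, −5.04, −4.29, −3.43 and −3.8 for the lower ones, in the same order. None of these genes was called once a CsA pair was left out.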

How the results depend on the processing

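The count of 2484 genes for CsA at 48 h ran from 1687 to 2945 under other filters, probe set choices, quantile normalization and a trended prior, and from 1736 to 1853 without 1 replicate. It was 1 with no replicate block, 206 with a block shared by both times, 457 with only the 6 arrays of 48 h and 844 with all arrays. At 12 h, 0 genes became 1 with the trended prior. The 209 genes that differed between times became 0 with no replicate block or a shared one, 94 with no filter, 436 with a filter at log2 6, 329 with the mean of probe sets, 120 without _x_at and _s_at probe sets, 681 with the trended prior, and 85 to 324 without 1 replicate. The 143 genes that differed between CsA and Ra became 0 with no replicate block or without any 1 CsA replicate, 2 with no filter, 1468 with quantile normalization, 310 with the trended prior and 812 without Ra replicate 2, a choice made after seeing the data. The change reversed for PPID (−0.07) with the mean of probe sets, and for GINS2 (0.03), IDI1 (0.29) and KIF23 (0.06) without _x_at and _s_at probe sets. PPID probe sets with signal gave 0.29 and 0.2. The probe sets left for GINS2, IDI1 and KIF23 were dim, near or under log2 4 at 48 h. The cause of the reversals was not tested. With 3 pairs, the number of arrays limits the precision, and probe sets near log2 4 give little signal over background.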

Other observations

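Outside the lists, several genes had among the smallest p-values; they were chosen after their values were seen. UHRF1 and DNMT1, which copy DNA methylation onto new strands, fell by 1.98 and 0.99 at 48 h. UHRF1 read 9.93, 8.32 and 9.15 in controls and 8.33, 6.1 and 7.04 with CsA, and DNMT1 10.9, 10.23 and 10.74 against 10.01, 9.25 and 9.64. SKP2, the ubiquitin ligase subunit that targets CDK inhibitors, fell by 1.23, and the pseudokinase TRIB1 by 1.15. NUCB2, a calcium-binding protein of the secretory pathway, rose by 1.17 in each of the 3 pairs, from 10.63, 11.63 and 11.26 to 11.8, 12.8 and 12.43. PSMB10, an immunoproteasome subunit, rose by 1.07. All 6 had a limma adjusted p of 0.00168.

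The spread between control cultures of 48 h was widest for LCN2, CLEC4E and MMP1. LCN2 ran from 4.0 to 12.87, the receptor CLEC4E from 2.71 to 11.35 and the collagenase MMP1 from 3.17 to 11.66. In the CsA cultures of the same numbers LCN2 read 5.26, 7.95 and 13.23, against 4.0, 8.07 and 12.87 in their partners.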
